A study of Mus musculus with 4 samples.

Results

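The genes described here are 10 core components of transforming growth factor beta (TGF-beta) signalling: the ligands Tgfb1 and Tgfb3, the receptors Tgfbr1 and Tgfbr2, the signal transducers Smad2, Smad3, Smad4 and Smad7, and the repressors Ski and Skil. They were taken by gene name from a table of 54532 genes, and each name matched 1 row. Expression was measured by RNA sequencing in 4 mouse libraries. By their labels they are tumour-infiltrating CD4+ T cells, sorted by flow cytometry, and the tumour is B16, a mouse melanoma line that makes pigment. The genotype is WT in 2 libraries and Piezo1KO in the other 2, and all 4 share the tumour as their stated treatment. PIEZO1 is an ion channel that opens when the membrane is stretched, and the study asked how it affects Th9 cells, which are helper T cells defined by making interleukin 9. Strain, age and sex are not in the labels, nor is the removed part of Piezo1 or the cells it was removed from. Separate animals are not stated for the libraries of a group either, so the p-values cover no more than the scatter among these libraries, and that scatter may be technical.

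TGF-beta ligands are secreted in a latent form and must be activated outside the cell. The active ligand binds TGFBR2, which phosphorylates TGFBR1, and TGFBR1 in turn phosphorylates SMAD2 and SMAD3. These pair with SMAD4 and enter the nucleus, where they act on target genes together with other factors. SMAD7 is an inhibitory SMAD that blocks the receptor and promotes its degradation, and SKI and SKIL bind the SMADs and recruit co-repressors. In CD4+ T cells TGF-beta directs several fates, among them the Th9 fate when interleukin 4 is present, and melanoma cells also express the pathway.

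Start-site sequences are shown for Ski and Tgfb1, because Ski had the largest difference among the 10 genes and Tgfb1 was the one whose difference had the opposite sign. RefSeq windows on GRCm38.p6, from 250 bases before to 50 bases after a gene's start, were found for 5 of the 10 genes. Printed below are the parts upstream of the gene models of the deposited table, 5′ to 3′ on the gene's strand, with the GC box GGGCGG in capitals, read on either strand. The Ski stretch is chr4:155222593-155222785 on the minus strand, and the Tgfb1 stretch is chr7:25686752-25687001 on the plus strand.
Ski: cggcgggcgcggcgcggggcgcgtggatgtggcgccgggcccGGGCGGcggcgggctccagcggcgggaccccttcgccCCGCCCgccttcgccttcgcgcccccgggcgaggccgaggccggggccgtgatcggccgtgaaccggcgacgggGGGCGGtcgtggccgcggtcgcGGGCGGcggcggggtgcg
Tgfb1: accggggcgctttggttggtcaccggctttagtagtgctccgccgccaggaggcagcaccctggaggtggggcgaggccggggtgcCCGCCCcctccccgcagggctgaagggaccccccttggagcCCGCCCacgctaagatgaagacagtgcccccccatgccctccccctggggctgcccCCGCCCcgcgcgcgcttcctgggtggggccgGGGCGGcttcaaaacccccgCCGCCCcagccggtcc

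The Ski window of 300 bases was 85.3% G and C with 59 CpG dinucleotides, and the Tgfb1 window was 77.0% G and C with 30. Over all 32851 windows of the same length, medians were 52.7% and 7 CpG. Each of the Ski and Tgfb1 windows held 6 GC boxes counted on both strands, of which 4 and 5 lie in the stretches printed. At least 1 GC box was present in 35.7% of all windows. The SMAD-binding letters CAGAC, searched on both strands, were in neither window and in 49.6% of all windows. Both windows thus had more G and C and more CpG than the median window; these matches describe the sequence and are not binding sites shown to be used.

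The makeup of the libraries bears on every value given here. Transcripts of CD4 and of the CD3 chains (Cd3e, Cd3d and Cd3g) were under 1 FPKM in every library, and those of melanocyte markers were abundant. In FPKM, the deposited unit, which scales fragments to gene length and library size, Cd4 was at 0.0126, 0.0366, 0.589 and 0.298 in WT 1, WT 2, Piezo1KO 1 and Piezo1KO 2. Cd3e, of the T cell receptor complex, was at 0.0124, 0.0241, 0.449 and 0 in the same order. The 10 melanocyte markers summed to 6149.6, 6177, 6763 and 6737 FPKM, against 2.47, 1.97, 14.96 and 9.93 for the 11 T cell markers. The T cell markers Lck, Thy1, Trac and Trbc2 passed the filter on low values, at up to 2.92, 3.25, 2.32 and 2.65 FPKM. The values below are therefore levels in these libraries as a whole and cannot be assigned to T cells. In such bulk samples, fewer cells of a type and less RNA per cell cannot be told apart.

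The libraries of the Piezo1KO group also stood apart from each other. The share of assigned reads from mitochondrial genes was 3.86% in WT 1, 2.99% in WT 2, 20.1% in Piezo1KO 1 and 48.3% in Piezo1KO 2. The targeted gene, Piezo1, was at 27.8 and 27.6 FPKM in the WT libraries, 18.7 in Piezo1KO 1 and 7.64 in Piezo1KO 2. Its difference on the log2(FPKM + 1) scale was -1.14 with a standard error of 0.41 (limma, Benjamini-Hochberg adjusted p = 0.166). Transcripts of Piezo1 were thus present in both libraries labelled Piezo1KO, at lower values than in WT.

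The comparison of Piezo1KO with WT asked whether the components of this pathway differed between the genotypes. Of 11085 genes whose mean FPKM over the 4 libraries was 1 or more, limma called 122 (1.1%) at an adjusted p under 0.05, 41 lower (0.37%) and 81 higher (0.731%) in Piezo1KO. All 10 members passed the filter, and none was called. At an unadjusted p under 0.05 there was 1 of 10, Ski, against 3170 of 11085 genes. With limma's voom on recovered reads, 0 members were called, beside 143 genes called higher and 163 lower of 11085. There 2 members had an unadjusted p under 0.05, against 3700 of 11085 genes.

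In 7 members both Piezo1KO libraries lay below both WT libraries, which held for 35.6% of all tested genes. In 1 member, Tgfb1, both lay above, which held for 33.9% of tested genes, and in 2 members the groups overlapped. The median difference over the 10 genes was -0.37 on the log2(FPKM + 1) scale, beside -0.0059 over all tested genes. Because 1 is added before the log, the change of weakly expressed genes is understated. A pair of libraries against a pair cannot reach an exact p under 0.333.

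**Figure D1:**
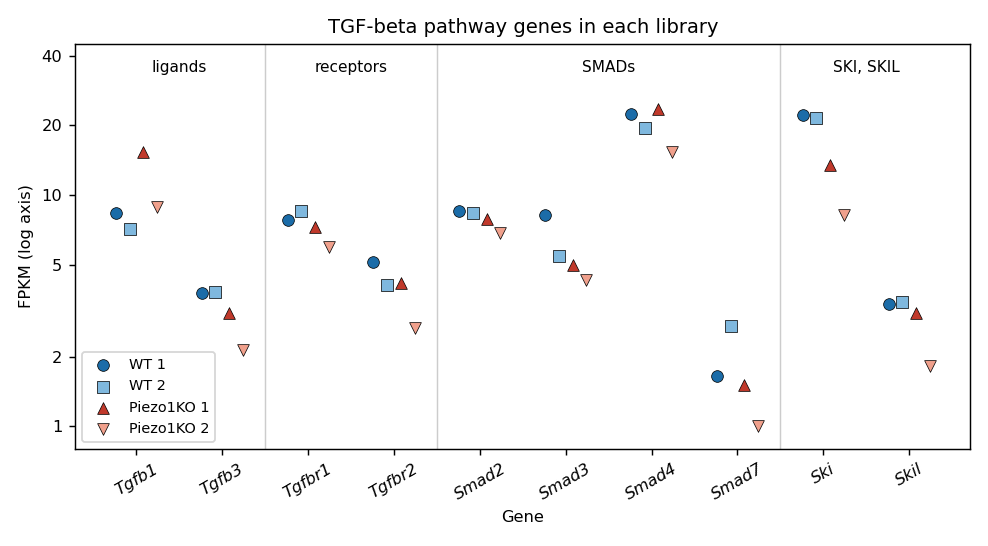
FPKM (log axis) of each of the 10 genes in the 4 libraries, 1 point per library, grouped by role. Tgfb1 is the gene with both Piezo1KO points above both WT points, and Piezo1KO 2 is the lower of the Piezo1KO pair for all 10 genes.

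Among the ligands, Tgfb1 and Tgfb3 had differences of opposite sign, neither of which passed the test. Tgfb1, the main TGF-beta isoform of immune cells (chromosome 7, 25687002 to 25705077, plus strand), was at 8.36 FPKM in WT 1, 7.11 in WT 2, 15.4 in Piezo1KO 1 and 8.84 in Piezo1KO 2. The high library was Piezo1KO 1, at 199% of the WT mean, while Piezo1KO 2 was at 114% and close to WT 1. The log2 difference was 0.54 with a standard error of 0.28 and a 95% interval of -0.19 to 1.28 (limma adjusted p = 0.251). Among all tested genes, 17.8% had a difference as high or higher. Without Piezo1KO 2 the log2 difference was 0.91, and without Piezo1KO 1 it was 0.18, each with a lone Piezo1KO library. With FPKM scaled to all assigned reads its sign turned, to -0.17 (limma adjusted p = 0.761); this scaling moved the median over all genes to -0.67, which Tgfb1 exceeded by 0.49.

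Tgfb3, a related ligand (chromosome 12, 86056745 to 86079041, minus strand), had an FPKM of 3.78, 3.81, 3.11 and 2.13 in WT 1, WT 2, Piezo1KO 1 and Piezo1KO 2. The WT pair was nearly equal, and both Piezo1KO values lay below it. The log2 difference was -0.42 with a standard error of 0.19 and a 95% interval of -0.91 to 0.07 (limma adjusted p = 0.208). Its exons share 163 and 257 bases with the antisense genes Gm37804 and Gm48008, which had 0 reads in all 4 libraries. Because strand was not stated, reads of Tgfb3 and of these genes cannot be told apart.

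The receptors were both expressed, and neither passed the test. Tgfbr1, the type I receptor kinase (chromosome 4, 47353222 to 47414931, plus strand), had an FPKM of 7.80 and 8.54 in the WT and 7.28 and 5.98 in the Piezo1KO libraries. Both Piezo1KO values were lower, Piezo1KO 1 at 89.2% and Piezo1KO 2 at 73.2% of the WT mean. The log2 difference was -0.27 with a standard error of 0.15 and a 95% interval of -0.66 to 0.13 (limma adjusted p = 0.276). Tgfbr2, the type II receptor that binds the ligand first (chromosome 9, 116084293 to 116175360, minus strand), had 5.15, 4.07, 4.18 and 2.66 in the same order. Here the groups overlapped, since Piezo1KO 1 lay between the WT libraries and Piezo1KO 2 alone was low. The log2 difference was -0.36 with a standard error of 0.23 and a 95% interval of -0.96 to 0.24 (limma adjusted p = 0.323).

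The receptor-activated SMADs were at moderate levels. Smad2 (chromosome 18, 76241580 to 76305731, plus strand) had an FPKM of 8.52, 8.36, 7.85 and 6.88 in WT 1, WT 2, Piezo1KO 1 and Piezo1KO 2. The 4 values spanned a narrow range, with a log2 difference of -0.18, a standard error of 0.13 and a 95% interval of -0.53 to 0.17 (limma adjusted p = 0.385). The deposited length of Smad2 was 3549 bases, against 8781 bases for the exons of GENCODE M21, so its values depend on the gene model used. Smad3 (chromosome 9, 63646767 to 63757994, minus strand) had 8.19 in WT 1, 5.46 in WT 2, 4.97 in Piezo1KO 1 and 4.29 in Piezo1KO 2. WT 1 stood high, and WT 2 lay nearer to the Piezo1KO libraries than to WT 1. Piezo1KO minus WT gave a log2 difference of -0.46 with a standard error of 0.21 and a 95% interval of -1.02 to 0.11 (limma adjusted p = 0.225).

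Smad4, the partner that both activated SMADs share (chromosome 18, 73639009 to 73703780, minus strand), had one of the 2 highest levels among the members, with an FPKM of 22.5 and 19.5 in the WT and 23.7 and 15.4 in the Piezo1KO libraries. Its groups overlapped fully, with the highest and the lowest value both in Piezo1KO. Its log2 difference was -0.13 with a standard error of 0.24 and a 95% interval of -0.76 to 0.51 (limma adjusted p = 0.723), and it was 0.17 without Piezo1KO 2 (limma adjusted p = 0.357). Smad7, the inhibitory SMAD and itself a TGF-beta target (chromosome 18, 75367529 to 75395935, plus strand), was the lowest member, with 1.65, 2.71, 1.51 and 1.00. The WT libraries differed more from each other than WT 1 did from either Piezo1KO library. The fitted log2 difference was -0.48 with a standard error of 0.25 and a 95% interval of -1.14 to 0.18 (limma adjusted p = 0.252). Smad7 rested on 147, 249, 101 and 34 reads, and the value of Piezo1KO 2 had an exact 95% interval of 0.695 to 1.40 FPKM, which covers counting error only.

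Ski had the largest difference of the 10 genes. SKI binds SMAD2, SMAD3 and SMAD4 and holds co-repressors on TGF-beta targets. The gene (chromosome 4, 155154075 to 155222592, minus strand) was at 22.1 FPKM in WT 1 and 21.4 in WT 2, from 2427 reads in each, 13.5 in Piezo1KO 1 from 1107 reads and 8.20 in Piezo1KO 2 from 342 reads. Both Piezo1KO libraries were low, at 61.9% and 37.7% of the WT mean, and they differed from each other by more than the WT pair did. Means were 21.8 ± 0.484 and 10.8 ± 3.74 (SD, n = 2 each). On the log2 scale the difference was -0.98 with a standard error of 0.25 and a 95% interval of -1.64 to -0.32, which did not pass after adjustment (limma, unadjusted p = 0.013, adjusted p = 0.132). A difference this low or lower was found in 2.22% of tested genes.

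Ski kept its negative sign in every alternative, from -1.71 with FPKM scaled to all assigned reads to -0.65 without Piezo1KO 2. It passed with that scaling (limma adjusted p = 0.00283), in a fit that called 1430 of 11085 genes lower. That fit tests against 0, while the median of all genes was -0.67 there, and Ski minus that median was -1.05. Ski was at -1.31 without Piezo1KO 1 and at -0.65 without Piezo1KO 2, where the lone Piezo1KO library was assumed to vary like the WT pair. It was at -0.96 without WT 1 and at -1.002 without WT 2, each with a lone WT library. As a rank within each library, which no scaling changes, Ski stood at percentile 91.5 and 91.4 of protein-coding genes in WT 1 and WT 2, at 85.7 in Piezo1KO 1 and at 79.7 in Piezo1KO 2. Tgfb1 stood at percentile 79.5, 77.1, 87.1 and 80.6 in the same order, so its rank was higher in both Piezo1KO libraries, by little in Piezo1KO 2.

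Skil, which encodes the SKI relative SnoN (chromosome 3, 31095058 to 31122577, plus strand), was expressed at a lower level and differed less. Its FPKM was 3.37, 3.44, 3.08 and 1.82 in WT 1, WT 2, Piezo1KO 1 and Piezo1KO 2. Piezo1KO 1 was at 90.4% and Piezo1KO 2 at 53.3% of the WT mean, so most of the gap came from Piezo1KO 2. Piezo1KO minus WT gave a log2 difference of -0.38 with a standard error of 0.22 and a 95% interval of -0.97 to 0.21 (limma adjusted p = 0.294).

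**Figure D2:**
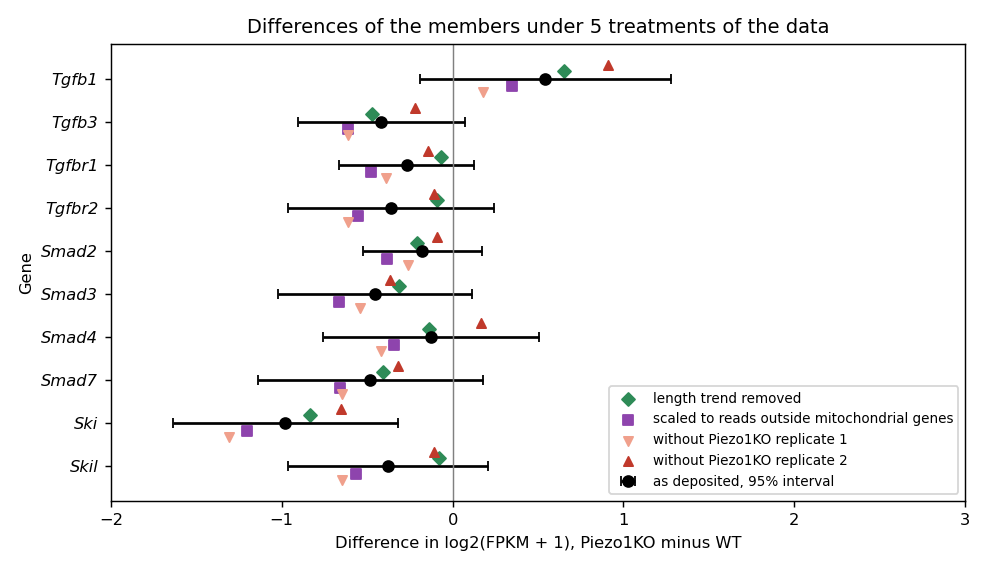
Difference in log2(FPKM + 1), Piezo1KO minus WT, for each gene: black points are the deposited values with 95% intervals from limma, and coloured points are 4 alternatives without intervals. The interval of Ski, -1.64 to -0.32, is the one that does not reach 0, and without Piezo1KO 1 every gene lies lower than without Piezo1KO 2.

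Piezo1KO 2 lay below Piezo1KO 1 in 10 of 10 members, which held for 51.9% of all tested genes. With FPKM scaled to reads outside mitochondrial genes it held for 10 of 10 members and 65.7% of tested genes. Both shares are over genes of all lengths. Across tested genes, the log2 difference of Piezo1KO 2 minus Piezo1KO 1 had a Spearman correlation of -0.379 with gene length, and 7 members are longer than the median gene. Without Piezo1KO 1 the median difference of the members was -0.58, and without Piezo1KO 2 it was -0.13. Over all tested genes these medians were -0.011 and -0.0025. In both fits the lone Piezo1KO library was assumed to vary like the WT pair. The differences of these genes thus moved with the library, and the share of mitochondrial reads, 20.1% against 48.3%, moved with them; its part in the result was not tested.

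Gene length moved with the differences as well. Across tested genes, which are not independent replicates, the log2 difference and the gene length had a Spearman correlation of -0.522. The members span 3383 to 9694 bases, and 7 of them exceed the median of 3991. The 5477 tested genes within that span had a median difference of -0.14, and in 46.6% of them both Piezo1KO libraries lay below both WT libraries. With the length trend of each library removed, the median of the members was -0.17 beside 0.0046 for all genes, Ski was at -0.83 (limma adjusted p = 0.163) and Tgfb1 at 0.65 (limma adjusted p = 0.218). Tgfbr1, Tgfbr2 and Skil then lay at -0.07, -0.09 and -0.08.

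Ratios of members within a library do not depend on how libraries are scaled. They are given without a test, for pairs chosen with the values known. The length trend was not removed from them, and it can enter where the paired genes differ in length. Lengths were 5042 bases for Tgfb1, 3383 for Tgfb3 and 6534 for Tgfbr1. They were 5562 for Ski, 9694 for Skil and 3712 for Smad4. The ratio of Tgfb1 to Tgfb3 was 2.21 and 1.87 in the WT and 4.94 and 4.15 in the Piezo1KO libraries. The ratio of Tgfb1 to the receptor Tgfbr1 was 1.07 and 0.832 in the WT and 2.11 and 1.48 in the Piezo1KO libraries. Relative to the sister ligand and to the receptor, Tgfb1 was thus higher in both Piezo1KO libraries.

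Ski was lower relative to its own family and to its SMAD partner. The ratio of Ski to Skil was 6.57 and 6.23 in the WT against 4.38 and 4.52 in the Piezo1KO libraries. Ski to Smad4 was 0.983 and 1.10 in the WT against 0.570 and 0.532. The Piezo1KO libraries were close to each other in both ratios, although their FPKM of Ski differed.

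The receptor and SMAD ratios separated the groups less. Tgfbr1 to Tgfbr2 was 1.52 and 2.10 in the WT and 1.74 and 2.25 in the Piezo1KO libraries, which overlapped. Smad4 to Smad2 was 2.64, 2.34, 3.01 and 2.24, which overlapped too, as did Smad7 to Smad3 at 0.201, 0.496, 0.305 and 0.234. Smad3 to Smad2 was 0.962 in WT 1 and 0.653 in WT 2, against 0.633 and 0.623 in Piezo1KO, so the groups were set apart by a narrow gap and WT 1 alone stood high.

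**Figure D3:**
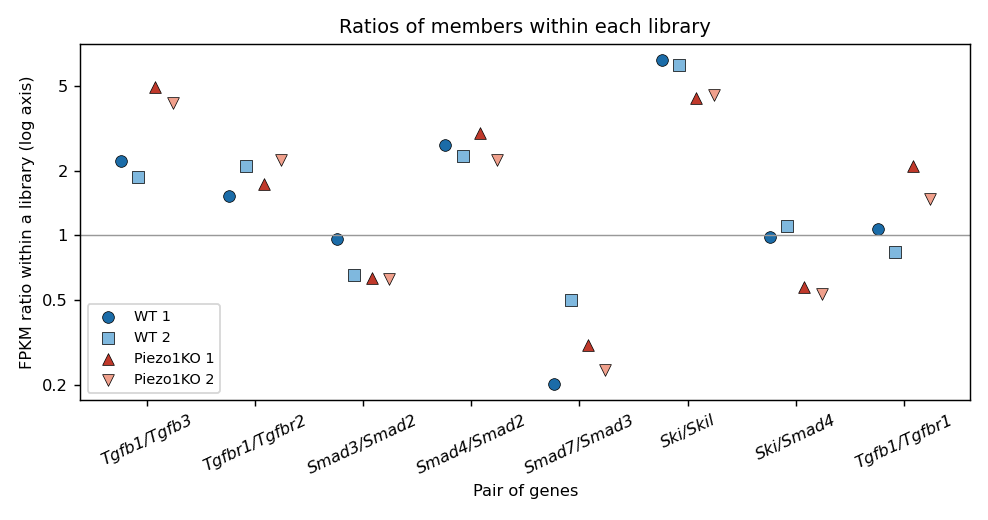
Ratio of FPKM between pairs of members within each library (log axis), 1 point per library. Tgfb1/Tgfb3 is 4.15 or more in Piezo1KO and 2.21 or less in WT, and Ski/Smad4 is 0.570 or less in Piezo1KO and 0.983 or more in WT.

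By mean FPKM, which is scaled to gene length, the order in WT was Ski (21.8), Smad4 (21.03), Smad2 (8.44), Tgfbr1 (8.17), Tgfb1 (7.73), Smad3 (6.83), Tgfbr2 (4.61), Tgfb3 (3.79), Skil (3.41) and Smad7 (2.18). Ski and Smad4 overlapped between the WT libraries, and so did each neighbouring pair from Smad2 down to Smad3. In Piezo1KO the order was Smad4 (19.5), Tgfb1 (12.1), Ski (10.8), Smad2 (7.37), Tgfbr1 (6.63), Smad3 (4.63), Tgfbr2 (3.42), Tgfb3 (2.62), Skil (2.45) and Smad7 (1.26). Ski was in place 1 in WT and place 3 in Piezo1KO, and Tgfb1 in places 5 and 2. The ranges of these genes overlapped across the Piezo1KO libraries. Within each library Tgfb1 was above Ski, at 15.4 against 13.5 FPKM in Piezo1KO 1 and 8.84 against 8.20 in Piezo1KO 2. The order of the other 8 by mean was the same in both groups. Across the Piezo1KO libraries the range of Smad2 overlapped that of Tgfbr1, Tgfbr2 that of Tgfb3, and Tgfb3 that of Skil. Within each Piezo1KO library the upper gene of each pair was still the higher. The gap was smallest for Tgfb3 and Skil in Piezo1KO 1, at 3.11 against 3.08 FPKM.

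Other genes of the pathway came from lists chosen with earlier results of these data known. Of 73 genes, 46 were tested, 1 was called higher and 0 lower by limma, and 17 had an unadjusted p under 0.05. Voom called 1 higher and 1 lower, beside 143 higher and 163 lower of 11085 genes. Their median difference was -0.19, beside -0.0059 over all tested genes, and 0.02 with the length trend removed. The single call was Gdf15, a stress-induced member of the TGF-beta superfamily. It had an FPKM of 1.92, 2.26, 7.47 and 7.42 in WT 1, WT 2, Piezo1KO 1 and Piezo1KO 2, a log2 difference of 1.45 with a standard error of 0.14 (limma adjusted p = 0.0381). Gdf15 did not pass with FPKM scaled to all assigned reads (0.82, limma adjusted p = 0.146) or with the length trend removed (1.10, limma adjusted p = 0.10). Its difference was 1.38 without WT 1 and 1.53 without WT 2, each with a lone WT library. Without Piezo1KO 1 limma called 6 of the 46 genes higher and 19 lower, and without Piezo1KO 2 it called 4 higher and 1 lower; over all 11085 genes these fits called 3046 higher and 2813 lower, and 1076 higher and 503 lower.

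Of 8 tested genes that store or activate the ligand, 4 had a difference above 0 and 4 below, with none called and 2 at an unadjusted p under 0.05. Below 0 were 7 of 8 with scaling to all assigned reads, 6 of 8 with scaling outside mitochondrial genes and 3 of 8 with the length trend removed. Thbs1, thrombospondin 1, which can activate latent TGF-beta, had an FPKM of 5.65, 3.71, 28.4 and 14.9. Both Piezo1KO libraries were well above WT, with a log2 difference of 1.95 and a standard error of 0.36 (limma adjusted p = 0.101). Itgav, an integrin chain that takes part in releasing active ligand, had 20.1, 21.5, 16.7 and 13.5. Its difference was -0.44 (limma adjusted p = 0.164), or -0.12 with the length trend removed. Of the other integrin genes in this list, Itgb6 had 0 reads in all 4 libraries. Itgb8 had 0, 3, 3 and 0 reads in WT 1, WT 2, Piezo1KO 1 and Piezo1KO 2.

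Of 8 tested receptors and co-receptors, 7 had a difference below 0, with none called, beside 50.4% of all tested genes below 0. With the length trend removed 5 of 8 were below 0. Acvr1b, an activin type I receptor that also signals through SMAD2 and SMAD3, had an FPKM of 4.83, 4.95, 3.01 and 2.90, a difference of -0.58 (limma adjusted p = 0.122). Acvr2a, an activin type II receptor, had 4.09, 4.07, 2.89 and 1.83, a difference of -0.62 (limma adjusted p = 0.152). Among other SMADs 2 of 4 were tested, and Smad5, of the BMP branch, had 23.5, 21.1, 16.1 and 15.6, a difference of -0.47 (limma adjusted p = 0.141), or -0.22 with the length trend removed. In each of these genes both Piezo1KO libraries lay below both WT libraries.

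SMAD partners and co-regulators had the lowest median of the pathway lists in the deposited scaling. In 11 of 12 tested genes both Piezo1KO libraries lay below both WT libraries, beside 35.6% of all tested genes, and in the other, Tgif1 (named after its values were seen), both lay above. None was called in FPKM by limma, 8 had an unadjusted p under 0.05, and the median was -0.51. Ep300, a histone acetyltransferase that SMADs recruit, had an FPKM of 6.41, 6.45, 3.17 and 2.21, a difference of -1.02 with a standard error of 0.18 (limma adjusted p = 0.0955); with voom on recovered reads it was called lower (-1.48, adjusted p = 0.0427). Its relative Crebbp had 1.95, 2.48, 1.04 and 1.26, a difference of -0.58 (limma adjusted p = 0.149), or -0.21 with the length trend removed. The co-repressor genes Tgif2 (4.13, 3.82, 2.25 and 1.57) and Sin3a (8.53, 9.11, 6.55 and 5.67) had differences of -0.78 and -0.47 (limma adjusted p = 0.123 and 0.141). Tested genes of this list span 3832 to 14273 bases, and with the length trend removed the median was -0.20, with 10 of 12 below 0.

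Of 13 tested negative regulators and ubiquitin enzymes, 6 had a difference above 0 and 7 below, with none called. This split depended on the processing: 2 of 13 lay below 0 with the length trend removed, and 13 of 13 with scaling to all assigned reads. Smurf2, a ubiquitin ligase that SMAD7 brings to the receptor, had an FPKM of 12.7, 12.2, 8.76 and 8.12, a difference of -0.51 (limma adjusted p = 0.129). Rnf111, a ligase that degrades SMAD7, SKI and SKIL, had 3.78, 3.87, 2.85 and 1.95, a difference of -0.52 (limma adjusted p = 0.163), or -0.24 with the length trend removed. Fkbp1a, which holds the type I receptor inactive, had 60.4, 64.1, 81.1 and 108. It was higher in both Piezo1KO libraries, with a difference of 0.58 (limma adjusted p = 0.160), which turned to -0.22 with FPKM scaled to all assigned reads (limma adjusted p = 0.671).

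**Figure D4:**
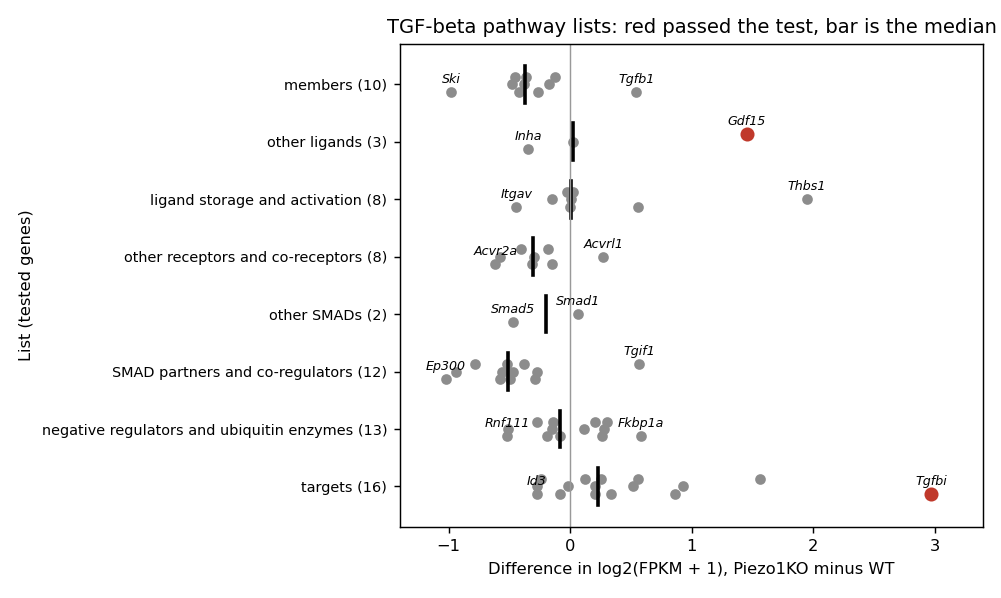
Difference in log2(FPKM + 1), Piezo1KO minus WT, of every tested gene (points) in the members, 6 other pathway lists and the targets, with bars at the medians and the number of tested genes in brackets. Gdf15 and Tgfbi, in red, passed the test, and the list of SMAD partners has 11 of 12 points below 0.

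Genes known to respond to TGF-beta were the last group, and they do not respond to it alone. Of 26, 16 were tested, and limma called 1 higher and 0 lower, with 4 at an unadjusted p under 0.05 and a median of 0.23. Voom also called 1 higher and 0 lower, beside 143 higher and 163 lower of 11085 genes. With scaling to all assigned reads the median of the targets turned to -0.29, with 12 of 16 below 0, beside -0.67 for all genes, and with scaling outside mitochondrial genes it was 0.09, beside -0.20. Tgfbi, which encodes a TGF-beta-induced matrix protein, rose from an FPKM of 1.95 and 1.62 in the WT to 27.1 and 15.8 in the Piezo1KO libraries, from 145, 124, 1508 and 447 reads. This was a log2 difference of 2.97 with a standard error of 0.28 (limma adjusted p = 0.0381). It kept its size with the length trend removed (2.96) but did not pass there (limma adjusted p = 0.0627). The difference of Tgfbi was 3.06 without WT 1 and 2.88 without WT 2, each with a lone WT library. Without Piezo1KO 1 and without Piezo1KO 2, 6 and 5 targets were called higher and 0 lower, in fits that called 3046 and 1076 of 11085 genes higher and 2813 and 503 lower.

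Of the 16 tested targets, 11 had a difference above 0 and 5 below. Those below 0 ranged from -0.02 (Klf10) to -0.28 (Id3). Some other targets that respond to many signals lay higher without passing. Cdkn1a, the cell cycle inhibitor p21, had an FPKM of 43.1, 39.0, 76.6 and 81.2, a difference of 0.93 (limma adjusted p = 0.0898). Junb, an AP-1 subunit, had 23.6, 23.0, 97.8 and 51.3, a difference of 1.56 (limma adjusted p = 0.118). Timp1, a metalloproteinase inhibitor, had 11.6, 9.91, 14.7 and 27.9, a difference of 0.86 (limma adjusted p = 0.174). It was 0.23 with the length trend removed, 0.10 with scaling to all assigned reads, 1.30 without Piezo1KO 1 and 0.42 without Piezo1KO 2. With scaling to all assigned reads Cdkn1a was at 0.13 and Junb at 0.78. Pmepa1, a pathway inhibitor also counted among the negative regulators, had a difference of 0.20 (limma adjusted p = 0.619) and was named after its values were seen. Il9, the Th9 cytokine, had 0 reads in all 4 libraries.

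Markers of several other cells were higher in Piezo1KO, as were Tgfb1, Thbs1 and Tgfbi, genes that myeloid cells or platelets are also known to express. Of 10 macrophage and monocyte markers, all tested, 10 had a difference above 0 and 2 were called higher, with summed FPKM of 97.0 and 71.3 in the WT and 417 and 283 in the Piezo1KO libraries and no marker at 0 reads. Like Tgfb1, Thbs1 and Tgfbi, this sum was highest in Piezo1KO 1, and so were the T cell, neutrophil, fibroblast and melanocyte sums. The platelet, erythroid and endothelial sums were highest in Piezo1KO 2. Of 6 neutrophil markers, 5 were tested and 2 called higher, with sums of 2.29, 2.38, 183 and 57.9, and 1, Cxcr2, at 0 reads in WT 1. Of 6 platelet markers, 2 were tested and none called, with sums of 9.14, 4.69, 22.0 and 43.3, and Gp1bb and Treml1 were at 0 reads in all libraries.

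The remaining marker lists moved in different ways. The 5 erythroid markers were all called higher, with sums of 389, 244, 5124 and 8472. Fibroblast markers (4 of 8 tested, none called) summed to 6.71, 4.89, 13.4 and 6.41, with Fap at 0 reads in both Piezo1KO libraries, and endothelial markers (3 of 6 tested, none called) to 10.8, 7.29, 11.6 and 16.9, with no marker at 0 reads. Of the T cell markers, 4 of 11 were tested, all 4 with a difference above 0 and an unadjusted p under 0.05 (limma), a median of 1.26 and none called, and 4, 1, 0 and 2 of them were at 0 reads in WT 1, WT 2, Piezo1KO 1 and Piezo1KO 2. Melanocyte markers (10 of 10 tested, none called) had a median difference of -0.20 and none at 0 reads. Of these, 3 had a difference above 0 and 7 below, while their sum was higher in both Piezo1KO libraries than in both WT libraries. The part of these cells in the differences of Tgfb1, Thbs1, Tgfbi and the other genes was not tested.

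**Figure D5:**
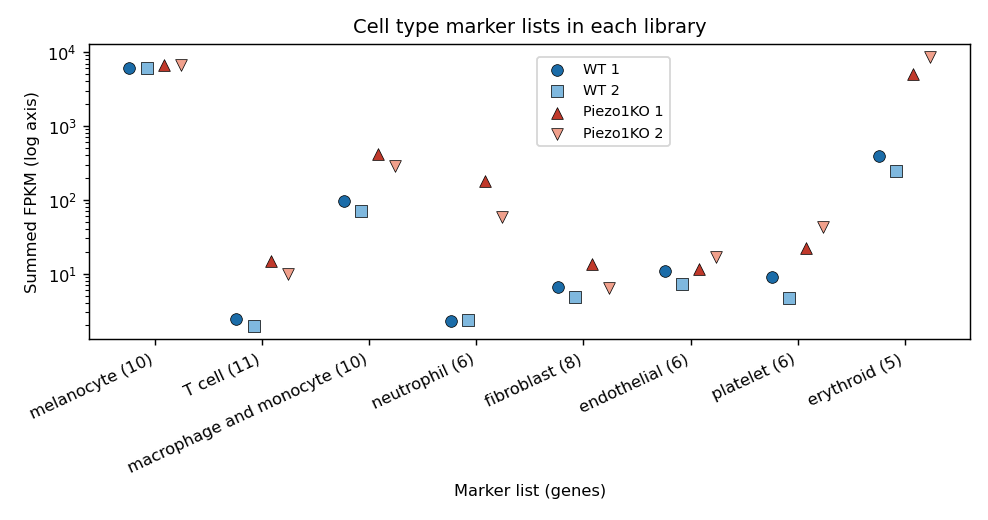
Summed FPKM (log axis) of each cell type marker list in each library, with the number of genes in brackets. Melanocyte markers sum to between 6149.6 and 6763 in every library and T cell markers to at most 14.96. Every sum except that of the fibroblast markers is higher in both Piezo1KO libraries than in both WT libraries.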

How the data were processed

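The authors deposited 1 table of FPKM values for 54532 genes in 4 libraries, with gene lengths; the submitters' processing notes name fastp 0.19.7, featureCounts 1.5.0-p3 and the builds mm10 and GRCm38. The aligner, annotation release and FPKM formula were not given in the sources used here. FPKM times length came in whole steps for 100% of values (tolerance 0.05 reads), which gave 13789266 to 15892797 assigned reads per library. Relative to assigned reads, the library size behind the FPKM was 1.26 in WT 1, 1.28 in WT 2, 0.962 in Piezo1KO 1 and 0.544 in Piezo1KO 2, so the deposited scaling differs from the assigned totals. Libraries are numbered by their titles; the table's columns number the WT libraries 2 and 3.

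The test was limma 3.58.1 (R 4.3.3; lmFit, trended eBayes) on log2(FPKM + 1), Piezo1KO against WT, two-sided, for genes whose mean FPKM was 1 or more, adjusted by Benjamini-Hochberg over all tested genes. The fit has 2 residual and 2.59 prior degrees of freedom. It was tried on simulated counts with the same dispersion (scatter beyond counting) in all libraries and no length trend. In the real libraries the median SD of log2(FPKM + 1) between replicates was 0.075 in WT and 0.206 in Piezo1KO. The simulation therefore does not show how the fit performs on these data. The members and lists were chosen with earlier results of these data known. All members are named; from each other list, called genes and up to 4 genes with the smallest p were named, keeping only unadjusted p under 0.05, a limit added after the values were seen. Intervals of FPKM from reads are exact 95% Poisson intervals. Alternatives changed the pseudocount, filter, trend, scaling, test, length trend, libraries and block.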

Additional observations from a re-analysis of the deposited data

How the results depend on the processing

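The count of called genes, 122 (81 higher, 41 lower), depended on the processing: it was 1 without a filter, 68 at a mean FPKM of at least 5, 1707 (277 higher, 1430 lower) with FPKM scaled to all assigned reads, 192 with quantile normalisation, 306 with voom on recovered reads, 7 with the length trend removed and 0 to 5859 when leaving out 1 library. With FPKM scaled to reads outside mitochondrial genes it was 77 higher and 60 lower. Without WT 1 or WT 2 limma called 0 genes, with 723 and 616 at an unadjusted p under 0.05. Of the members, 0 were called as deposited, 1 with scaling to all assigned reads and 0 to 6 when leaving out 1 library. The median of the members, -0.37, was -0.94 with scaling to all assigned reads (all genes -0.67), -0.56 outside mitochondrial genes (all genes -0.20), -0.66 with voom (all genes -0.22), -0.17 with the length trend removed, and -0.58 to -0.13 when leaving out 1 library. Other pathway genes called, 1 as deposited, numbered 0 without a filter, at a mean of at least 5 and with the length trend removed, 12 with scaling to all assigned reads, 2 with voom and 0 to 25 when leaving out 1 library. Targets called, 1 as deposited, numbered 0 without a filter and with the length trend removed, and 0 to 6 when leaving out 1 library. Gdf15 and Tgfbi each had an adjusted p of 0.171 without a filter. The sign turned for Tgfb1 (-0.17) and Fkbp1a (-0.22) with scaling to all assigned reads, and for Smad4 when leaving out 1 library (-0.42 to 0.17). Of 136 values of members under alternatives, 125 kept sign and side of the threshold, 9 passed it and 2 changed sign. Of 231 values of other named genes, 192 kept both, 9 no longer passed, 29 passed and 1 changed sign. Alternatives of filter, trend or block leave the log2 difference unchanged, so no sign could turn there. As no member passed as deposited, a member that stayed uncalled also counted as kept. These counts therefore do not measure how stable the differences are. With the title's sample number as a replicate block, 264 genes, 0 members and 2 pathway genes were called; same-numbered libraries had deviations correlated at -0.0329, so the number is not shown to pair them. Members had 34 to 2427 reads per library, which limits Smad7 and Tgfb3 in Piezo1KO 2 most.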

Other observations

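Pathway genes below the filter are given by value, and those named were chosen after their values were seen. Inhba, the subunit of activin A, was at 0.0556, 0.0154, 1.81 and 1.11 FPKM in WT 1, WT 2, Piezo1KO 1 and Piezo1KO 2, with 7, 2, 171 and 53 reads. Mmp9, a protease that neutrophils carry and that can release latent TGF-beta, had 3 and 10 reads in the WT and 140 and 17 in the Piezo1KO libraries. Runx3, a SMAD partner of lymphoid cells, had 3, 8, 92 and 8 reads, and Foxp3, the regulatory T cell factor, had 1, 4, 32 and 6. All 4 genes had most reads in Piezo1KO 1. Tgfb2 had an FPKM of 0.692, 0.908, 0.831 and 1.47, and Tgfbr3, the co-receptor betaglycan, had 0.527, 0.473, 0.290 and 0.102.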
